A study of Mus musculus with 24 samples.

Results

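Fbxo32 encodes atrogin-1, also called MAFbx, the substrate-binding F-box subunit of an SCF ubiquitin ligase. It was 1 of 32719 genes in the deposited counts, and 1 of 15599 with enough counts to be tested. It was chosen by its measured values: among all genes tested it stood first or second by the size of its fall with insulin or IGF-1. Those falls are therefore given as a description, with no test, and only comparisons that did not choose the gene are tested.

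F-box proteins dock substrates onto a core made of SKP1, CUL1 and RBX1, which passes ubiquitin to them and marks them for the proteasome. Atrogin-1 is best known from skeletal and cardiac muscle, where its gene is switched on in wasting, fasting and after glucocorticoids. FOXO transcription factors bind and activate the gene. Insulin and IGF-1 receptors act through PI3-kinase and AKT, which phosphorylates FOXO factors and keeps them out of the nucleus.

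RNA was measured in 24 libraries of primary mouse cortical astrocytes at 14 days in vitro, 4 in each of 6 groups. The cells came from newborn pups whose insulin receptor gene Insr is floxed (IR f/f), and all were infected with adenovirus. IRKO cells received virus encoding Cre:GFP and IRflox control cells received virus encoding GFP alone, so genotype and Cre expression cannot be told apart. Cells were used 5 days after infection. Each genotype was starved of serum overnight in medium with 0.1% BSA and then treated for 6 h with vehicle, with insulin or with IGF-1, each ligand at 100 nM. No label ties a library to its own culture or litter, so the tests measure the spread between libraries, which may be technical. RNA was measured in whole cultures, so a change in RNA per cell and a change in the share of cells that make it cannot be told apart.

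Gene counts summed to between 15429688 and 19010986 per library. Insr, the targeted gene, had 1045 to 1108 counts per library in IRflox and 725 to 789 in IRKO with vehicle, 790 to 869 and 478 to 530 with insulin, and 773 to 907 and 475 to 523 with IGF-1. It was lower in IRKO under vehicle by 0.61 on the log2 scale (edgeR adjusted p = 3e-10), so part of its RNA was still counted in the IRKO libraries; the counts cover the whole gene, and the labels do not name the floxed exon. Over all libraries the summed astrocyte markers lay between 4131 and 4983 CPM (counts scaled to a common library size). In IRflox they summed to 4503 to 4785 CPM with vehicle and 4131 to 4268 CPM with IGF-1. In IRKO they summed to 4728 to 4983 CPM with vehicle and 4453 to 4493 CPM with IGF-1. The insulin libraries overlapped the vehicle range in each genotype. No marker of the astrocyte list was absent.

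Fbxo32 (ENSMUSG00000022358) lies on the minus strand of chromosome 15, from 58175879 to 58214932 (mm10, GENCODE M21). Its 1 annotated transcript has 9 exons with 6976 bp in all, of which 1065 bp are coding and 5677 bp belong to the last exon. It shares no exon with another measured gene. An unmeasured antisense gene, Gm15943 (plus strand, 58214475 to 58214681), overlaps 186 bp of its exons, 2.67% of their length, and the libraries do not mark strand.

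Vehicle-treated astrocytes held clear amounts of Fbxo32 RNA. The 4 IRflox vehicle libraries held 767, 715, 757 and 794 counts, or 44.0, 45.7, 40.2 and 45.3 CPM. The 4 IRKO vehicle libraries held 844, 990, 978 and 866 counts, or 46.2, 51.5, 52.1 and 47.9 CPM. The vehicle libraries of a group lay close together, with a coefficient of variation of 5.77% in IRflox and 5.71% in IRKO, and every IRKO value was above every IRflox value.

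Both ligands left a small remainder. The IRflox insulin libraries held 5.21, 4.14, 5.94 and 3.54 CPM, from 86, 69, 96 and 63 counts. The IRflox IGF-1 libraries held 2.80, 3.97, 2.64 and 4.68 CPM, from 46, 70, 47 and 78 counts. These 8 libraries overlapped each other and lay far below the vehicle libraries, whose lowest value was 40.2 CPM.

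In IRKO cells the insulin libraries held 5.91, 5.02, 6.48 and 6.99 CPM, from 110, 81, 109 and 121 counts. The IRKO IGF-1 libraries held 4.94, 5.05, 3.03 and 3.27 CPM, from 86, 81, 50 and 53 counts. Apart from 1 insulin and 1 IGF-1 library that met near 5 CPM, the IRKO insulin libraries lay above the IRKO IGF-1 libraries.

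**Figure D1:**
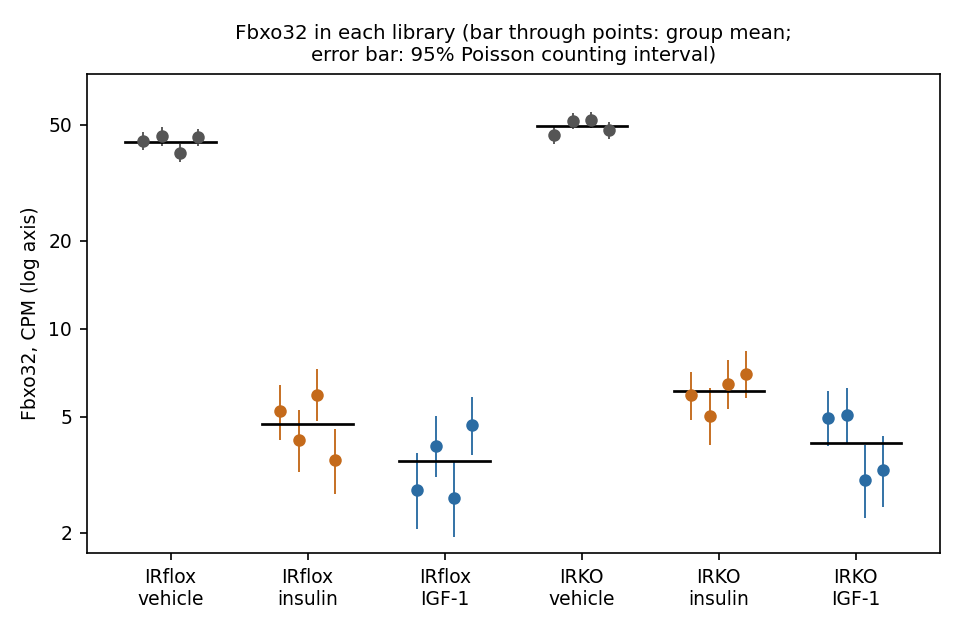
Fbxo32 in CPM on a log axis in each of the 24 libraries by group; the vertical line at each point is its 95% Poisson counting interval and the horizontal bar is the group mean. The 8 vehicle libraries sit between 40.2 and 52.1 CPM and the 16 ligand libraries between 2.64 and 6.99 CPM.

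In means, insulin took Fbxo32 in IRflox from 43.8 ± 2.53 to 4.71 ± 1.07 CPM (SD, n = 4), a vehicle-to-ligand ratio of 9.31. With IGF-1 the IRflox level was 3.52 ± 0.972 CPM (SD, n = 4), a ratio of 12.4. The IRKO level was 49.4 ± 2.83 CPM with vehicle, and insulin left 6.10 ± 0.846 and IGF-1 4.07 ± 1.07 CPM (SD, n = 4 each), which gives ratios of 8.10 and 12.1. What remained was 10.7% of the vehicle level with insulin and 8.04% with IGF-1 in IRflox, and 12.3% and 8.23% in IRKO. The lowest vehicle library was still 6.77 and 8.59 times the highest insulin and IGF-1 library in IRflox, and 6.61 and 9.15 times in IRKO.

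The fitted log2 changes were -3.22 (SE 0.119) with insulin and -3.64 (SE 0.125) with IGF-1 in IRflox, and -3.02 (SE 0.112) and -3.60 (SE 0.121) in IRKO. The 2 comparisons of a genotype share its vehicle libraries, so they are not independent of each other. Of the variance of Fbxo32 log2 CPM over the 24 libraries, 95.5% lay between vehicle and the ligands, 1.63% between insulin and IGF-1, 0.612% between genotypes and 2.14% within groups. Between treatments lay 97.2% of its variance, against 37.3% for the median gene, and Fbxo32 ranked 114th of the 15599 genes tested by this share. The spread within ligand groups was wider in relative terms than under vehicle, with coefficients of variation of 13.9 to 27.6%, against 9.75 to 12.9% from counting error alone.

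Ranked by level, the groups ran from IRKO vehicle through IRflox vehicle, IRKO insulin, IRflox insulin and IRKO IGF-1 to IRflox IGF-1. The first pair of neighbours did not overlap, with a lowest IRKO vehicle library of 46.2 CPM and a highest IRflox vehicle library of 45.7 CPM. The step from IRflox vehicle to IRKO insulin was 7.18-fold, without overlap. The remaining neighbours in this order overlapped.

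In the edgeR fit insulin left more Fbxo32 RNA than the same concentration of IGF-1, on average and in IRKO. Exact permutation tests, given below, did not pass after adjustment. Averaged over genotypes, the level under insulin was 1.41 times that under IGF-1, a log2 difference of 0.50 (SE 0.116, 95% interval 0.26 to 0.73, edgeR adjusted p = 0.00374). Of all genes tested, 1333 or 8.55% passed this comparison in either direction. In IRKO the difference was 0.58 (SE 0.157, interval 0.27 to 0.90, edgeR adjusted p = 0.0307), and 15 of 16 pairs of libraries had insulin higher. There 2.67% of all genes passed.

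In IRflox the insulin-to-IGF-1 difference was 0.41 (SE 0.170, interval 0.07 to 0.76), with insulin higher in 13 of 16 pairs, and did not pass (edgeR adjusted p = 0.233). Two-sided exact permutation tests on the log2 CPM of Fbxo32 alone gave p = 0.0571 in IRKO, 0.171 in IRflox and 0.0102 for the average stratified by genotype. After adjustment over the 7 exact tests run on Fbxo32, the lowest of them was 0.0714, so none passed. The gene-wise biological coefficient of variation estimated for Fbxo32 was 7.58%, beside 6.12% for genes of its abundance. The quasi-likelihood test of edgeR does not use this gene-wise value itself. Its fit takes 1 biological spread per gene for all 6 groups, whereas the ligand libraries varied more than the vehicle libraries. Coefficients of variation were 13.9 to 27.6% within ligand groups and 5.71 to 5.77% within vehicle groups. Counting error alone would give 9.75 to 12.9% in the ligand groups. The edgeR SE and intervals between ligand groups may therefore be too narrow. Leaving out any of 5 single libraries ended the edgeR call within IRKO (IRKO IGF-1 libraries 3 and 4 and IRKO insulin libraries 1, 3 and 4, difference 0.46 to 0.60), whereas the average over genotypes passed without any 1 of the 24 libraries.

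Fbxo32 was also higher in IRKO than in IRflox cells in the edgeR fit when the 3 treatments were averaged. The log2 difference was 0.26 (SE 0.0829, interval 0.09 to 0.42, edgeR adjusted p = 0.018), a 1.19-fold difference, and 25.9% of all genes passed that comparison in either direction. Under vehicle alone the difference was 0.18 (SE 0.0885, interval -0.0035 to 0.35, edgeR adjusted p = 0.254). All 16 pairs of vehicle libraries had IRKO higher, and the exact permutation p was 0.0286, the smallest that 4 libraries against 4 can give, or 0.0719 after adjustment over the 7 exact tests.

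Under insulin the IRKO level was higher by 0.38 (SE 0.153, interval 0.07 to 0.69) in 13 of 16 pairs (edgeR adjusted p = 0.106; exact permutation p = 0.143). Under IGF-1 it was higher by 0.21 (SE 0.175, interval -0.14 to 0.57) in 12 of 16 pairs (edgeR adjusted p = 0.563; exact permutation p = 0.486). Without 1 library this difference ranged from 0.09 (IRflox IGF-1 library 3) to 0.38 (IRflox IGF-1 library 4). The stratified exact permutation p of the average was 0.0308, or 0.0719 after adjustment. The call on the average was lost without any of 4 single libraries (IRflox IGF-1 library 3, IRflox insulin library 4, IRKO IGF-1 libraries 1 and 2, difference 0.22 in each).

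Microglia markers moved with genotype. Their summed level was 1369 to 1458 CPM in IRflox and 1671 to 1712 CPM in IRKO with vehicle, 1201 to 1268 and 1436 to 1469 CPM with insulin, and 1233 to 1303 and 1407 to 1499 CPM with IGF-1. Of 15 microglia markers, 12 rose and 0 fell in IRKO under vehicle, where 3.76% of all genes rose and 4.1% fell. With the summed marker level as a covariate the average genotype difference in Fbxo32 was 0.13 (SE 0.297, edgeR adjusted p = 0.878). Within each treatment IRKO and IRflox did not overlap in this sum, so there the marker level and the genotype cannot be told apart.

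Whether the fall with ligand differed between genotypes was tested as an interaction. With insulin the fall was 0.21 smaller on the log2 scale in IRKO (SE 0.176, interval -0.15 to 0.56, edgeR adjusted p = 0.944), and with IGF-1 it was 0.04 smaller (SE 0.194, interval -0.36 to 0.43, edgeR adjusted p = 0.993). Neither difference passed. Without 1 library the first ranged from 0.09 (IRflox insulin library 4) to 0.34 (IRflox insulin library 3) and the second from -0.09 to 0.21. The intervals still allow a fall in IRKO that is weaker by up to 0.56 with insulin and 0.43 with IGF-1, and also an equal or a stronger fall. A difference within these intervals was neither shown nor excluded.

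**Figure D2:**
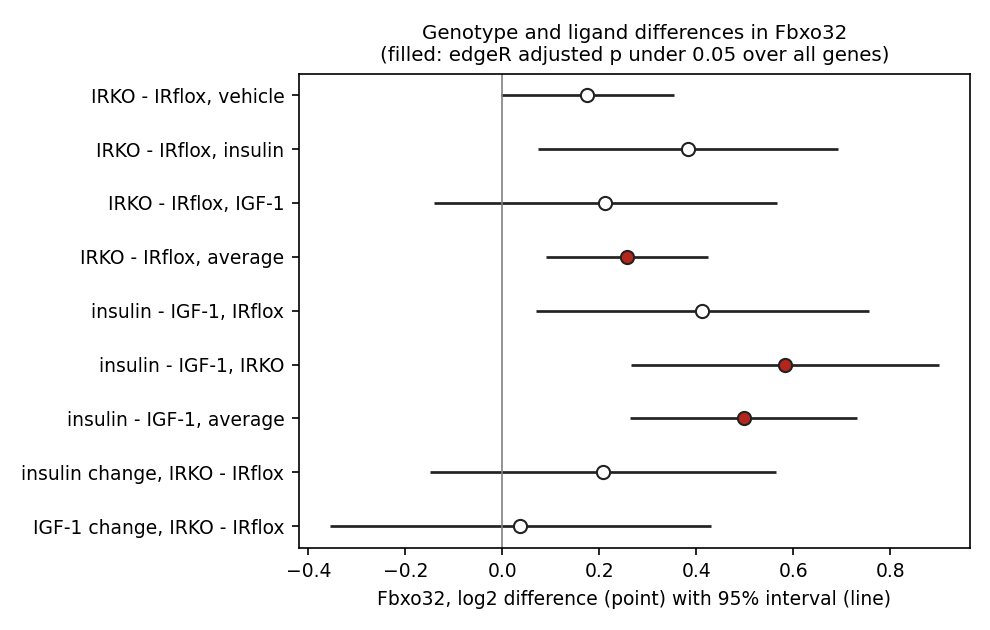
Differences in Fbxo32 that did not choose the gene, as log2 differences with 95% intervals from the edgeR fit. Filled points passed an adjusted p of 0.05 over all genes: the genotype average (0.26), insulin against IGF-1 in IRKO (0.58) and its average (0.50); each of the 9 points is above 0.

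The falls of other genes give the context, among genes that passed the low-count filter. With insulin in IRflox, 237 of the 15599 genes tested were at or below a log2 change of -1, 13 were at or below -2, and Fbxo32 alone was at or below -3. With IGF-1 in IRflox the counts were 317, 16 and 1, again with Fbxo32 alone in the last. In IRKO they were 196, 15 and 1 with insulin and 327, 28 and 3 with IGF-1.

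Fbxo32 stood first in 3 of the 4 rankings and second in the fourth. Without the low-count filter, which lets in genes with few counts, it ranked 108th and 86th with insulin and IGF-1 in IRflox and 195th and 69th in IRKO. Behind it came the predicted gene Gm44109 (-2.56, SE 0.241) with insulin in IRflox, the exchange factor gene Rasgef1a (-2.94, SE 0.352) with IGF-1 in IRflox, and the potassium channel gene Kcnc2 (-2.76, SE 0.520) with insulin in IRKO. These falls rested on fewer counts: Kcnc2 had 12 to 21 counts in an IRKO vehicle library and 1 to 3 under insulin. Counted in either direction, Fbxo32 was 6th, 2nd, 1st and 2nd by the size of its change in these 4 comparisons.

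With IGF-1 in IRKO the apolipoprotein gene Apoa4 stood above Fbxo32, at -4.16 (SE 1.79). It had 0, 0, 0 and 29 counts in the 4 IRKO vehicle libraries and at most 1 in an IGF-1 library, so 1 library carried that fall. That library, IRKO vehicle library 4, also held 112 counts of Alb, the hepatocyte gene for serum albumin, against 0 in the other 3. Without it Fbxo32 ranked 1st, with log2 changes in IRKO of -3.05 (SE 0.119) with insulin and -3.62 (SE 0.128) with IGF-1, and its genotype average was 0.26 (edgeR adjusted p = 0.0194). Genes in the first 10 of all 4 rankings were Fbxo32, Kcnc2, the long noncoding 2610035D17Rik and Ypel3, which encodes a small zinc-binding protein of the yippee family.

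**Figure D3:**
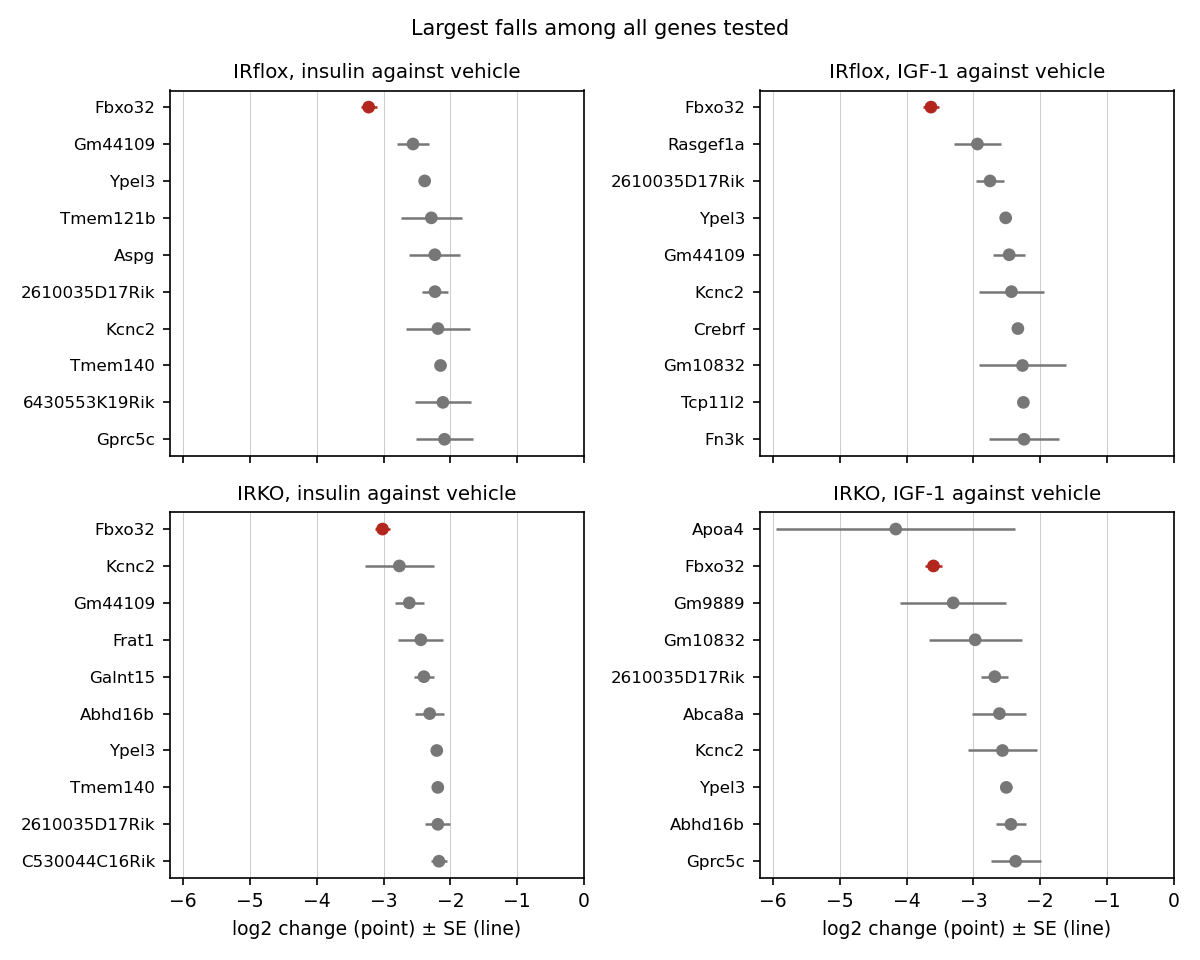
The 10 largest falls among the 15599 genes tested in each ligand comparison, as log2 change against vehicle (point) with its SE (line); Fbxo32 is in red. Fbxo32 lies between -3.02 and -3.64 with short error lines, and only Apoa4 in IRKO cells given IGF-1 (-4.16, SE 1.79) lies beyond it.

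Many genes followed the same pattern over the libraries with smaller falls. Over the log2 CPM of 24 libraries, 221 of 12092 genes had a Pearson r with Fbxo32 above 0.95. Correlations of this kind rest largely on the contrast of 8 vehicle with 16 ligand libraries, which such genes share, and are a description only. The 8 highest were Tcp11l2 (r = 0.988), Calcoco1 (0.987), Ypel3 (0.985), Gpr146 (0.984), Fbxl20 (0.984), Pcmtd2 (0.983), Retreg1 (0.983) and Ulk2 (0.982).

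Calcoco1 and Retreg1 encode receptors for autophagy of the endoplasmic reticulum, Ulk2 an autophagy-starting kinase, and Fbxl20 another F-box protein. Their log2 changes with insulin in IRflox were -1.36 for Calcoco1, -1.02 for Retreg1, -0.75 for Ulk2 and -0.95 for Fbxl20, all smaller than that of Fbxo32. In the 12 IRflox or the 12 IRKO libraries alone, the 8 highest correlations shared 1 gene with this list each, so the order among these close values depends on the libraries used.

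By size as well as shape, the 5 closest genes over the 6 group means were Ypel3, 2610035D17Rik, Crebrf, Gm44109 and Tcp11l2. In IRflox, Ypel3 went from 78.8 CPM with vehicle to 15.1 with insulin and 13.8 with IGF-1. Crebrf, which encodes a regulator of the transcription factor CREB3, had 130.8, 31.7 and 25.9 CPM in the same 3 groups. Both kept a larger part of their vehicle level than Fbxo32, which had 10.7% left with insulin and 8.04% with IGF-1.

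**Figure D4:**
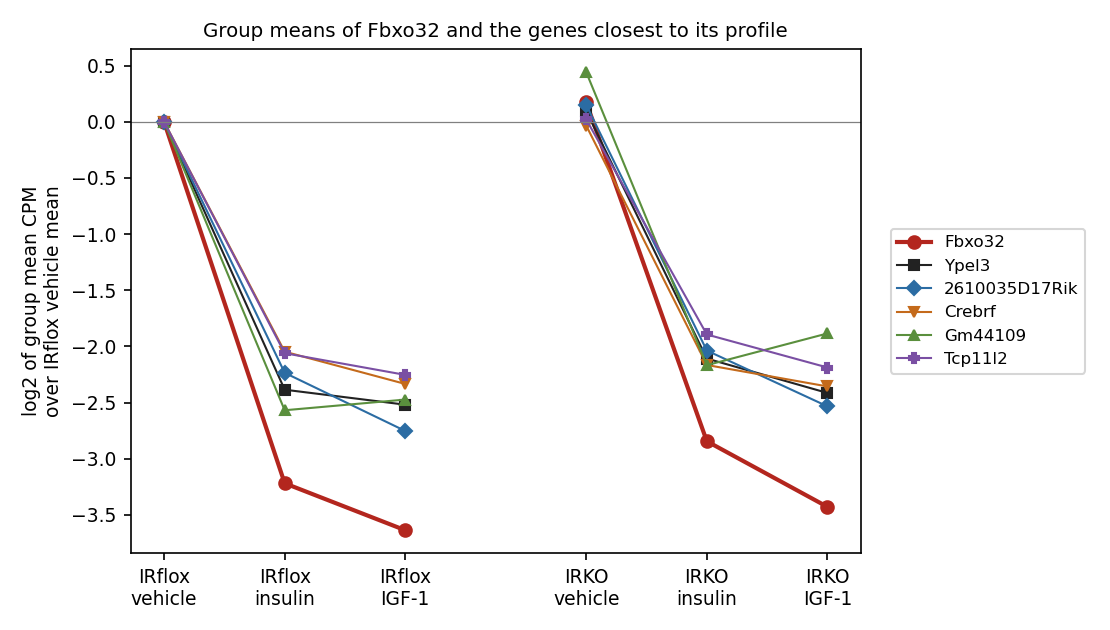
Group means relative to the IRflox vehicle mean, as log2 of the CPM ratio, for Fbxo32 (red) and the 5 genes with the closest profile. All 6 genes are lower in the 4 ligand groups than in either vehicle group, and Fbxo32 is the lowest there.

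Other F-box genes were measured in the same libraries. The files held 80 genes named as F-box genes with Fbxo32, and 61 were tested. Per kilobase of exon, Fbxo32 had 6.28 CPM in IRflox under vehicle (median of the family 3.49) and ranked 30th of 80 by level, well below the glycoprotein-binding Fbxo2 at 73.8. With insulin or IGF-1 it ranked 55th in IRflox. In IRKO it ranked 24th with vehicle, 54th with insulin and 55th with IGF-1.

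Of the 60 other F-box genes tested, 8 rose and 18 fell with insulin in IRflox, where 24.3% of all genes rose and 21.4% fell. With IGF-1 in IRflox 11 rose and 18 fell, beside 26.4% and 24.4% of all genes. In IRKO 9 rose and 18 fell with insulin (24.7% and 21.7% of all genes) and 10 rose and 24 fell with IGF-1 (26.9% and 25.1%). Their median log2 change was between -0.05 and -0.08, against a median of about 0 over all genes. At most 1 of the others was below -1 in any of these comparisons.

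Fbxl20 fell most among them in IRflox, by 0.95 with insulin and 1.12 with IGF-1 on the log2 scale. Fbxo25, the nearest relative of Fbxo32 in sequence, fell by 0.47 and 0.62 in IRflox and by 0.41 and 0.66 in IRKO (edgeR adjusted p at most 3.79e-06). Its vehicle level was 23.8 CPM in IRflox and its insulin level 17.2 CPM.

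Genes for the partners of the ligase were followed as a list. Of 16 genes for the SCF core, its E2 enzymes and the neddylation that activates cullins, 10 rose and 1 fell with insulin in IRflox, and 9 rose and 1 fell with IGF-1. In IRKO 6 rose and 2 fell with insulin, and 9 rose and 3 fell with IGF-1. Beside these counts, 24.3 to 26.9% of all genes rose and 21.4 to 25.1% fell in the 4 comparisons. Of the core, Rbx1 rose by 0.15 with insulin in IRflox (adjusted p = 0.00926 by edgeR), while Skp1a (0.08) and Cul1 (0.08) did not pass in any of the 4 comparisons. The E2 gene Ube2r2 fell by 0.12. Nedd8, the ubiquitin-like protein joined to cullins, rose by 0.28 with insulin in IRflox (adjusted p = 0.000897 by edgeR), and Cand1, the exchange factor that swaps F-box proteins on CUL1, rose by 0.24 (adjusted p = 3.79e-06 by edgeR). The median changes of the list, 0.10 to 0.15, are small beside the falls of Fbxo32.

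Other ubiquitin ligases of muscle wasting were followed as a list of 14, of which 12 were tested. Trim63, which encodes MuRF1, the usual companion of atrogin-1 in muscle, had 1 count in all 24 libraries together. Klhl38 had at most 4 counts in a library. With insulin in IRflox 1 of the 12 rose and 6 fell, with IGF-1 1 rose and 6 fell, and in IRKO 1 rose and 7 fell with insulin and 1 rose and 5 fell with IGF-1. Of all genes, 24.3 to 26.9% rose and 21.4 to 25.1% fell in these comparisons.

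The largest of these falls in IRflox was in Ubr2, which encodes an N-recognin ligase, from 155.1 to 114.2 CPM with insulin (log2 change -0.44, edgeR adjusted p = 1.36e-11). In the same comparison Fbxo30, or MUSA1, fell by 0.29 and Fbxo21, or SMART, by 0.29. Trim32 fell by 0.20, Traf6 by 0.14 and Mdm2 by 0.10. Fbxo31 (-0.10), Asb2 (-0.08), Nedd4 (-0.01), Cblb (0.11) and Fbxo40 (0.00) did not pass with insulin in IRflox. With IGF-1 in IRflox, Fbxo31 fell by 0.25 (edgeR adjusted p = 0.0249) and Traf6 (-0.13) did not pass (edgeR adjusted p = 0.051). Stub1, the chaperone-linked ligase CHIP, rose by 0.14, but 42% of its exon length is shared with another gene and its value is uncertain.

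Fbxo40, a muscle ligase for the insulin receptor substrate IRS1, passed with insulin in IRKO (-1.23, edgeR adjusted p = 0.0261), from 0.726 to 0.305 CPM. It had 1 to 20 counts per library. No tested ligase of this list came nearer to the fall of Fbxo32 than this value.

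Known FOXO targets other than Fbxo32 fell with both ligands. Of 34 tested, 27 fell and 3 rose with insulin in IRflox, and the same counts held with IGF-1 in IRflox and with insulin in IRKO; with IGF-1 in IRKO 28 fell and 3 rose. Of all genes, 21.4 to 25.1% fell and 24.3 to 26.9% rose in these comparisons. The median log2 change of the 34 was -0.40, -0.44, -0.40 and -0.42 in these 4 comparisons. The list was compiled with earlier results of these data known, so its direction is not independent evidence.

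Pdk4, the kinase that shuts pyruvate dehydrogenase, fell by 1.98 with insulin in IRflox, from 9.87 to 2.50 CPM (edgeR adjusted p = 3.12e-13). Ccng2, an atypical cyclin, fell by 1.37, Ulk1, the autophagy-starting kinase, by 1.36, and Mxi1, a repressor that competes with MYC, by 1.24. The targets that rose were Tnfsf10 (0.72), Ddit4 (0.49) and Sod2 (0.19). None of the 34 fell as far as Fbxo32.

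The genes for the FOXO factors differed in direction. Foxo1 had 44.0 CPM in IRflox under vehicle and rose by 0.18 with insulin (edgeR adjusted p = 0.00902), with 0.01 for IGF-1, and did not pass in IRKO (0.11 and 0.08). Foxo3 fell by 0.29 with insulin and 0.42 with IGF-1, and Foxo4 by 0.76 and 0.80. In IRKO, Foxo4 fell by 0.83 with insulin and 0.91 with IGF-1. Foxo6, at 1.99 CPM, rose by 0.59 and 0.95 in IRflox and by 0.83 and 1.18 in IRKO.

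Upstream of them, Igf1r fell by 1.11 with insulin and 0.95 with IGF-1 in IRflox, from 191.4 CPM under vehicle. Insr fell by 0.31 and 0.34. Of the 19 tested genes for FOXO factors and the pathway from receptor to AKT, 5 rose and 12 fell with insulin in IRflox and 3 rose and 10 fell with IGF-1. In IRKO 4 rose and 10 fell with insulin, and 4 rose and 11 fell with IGF-1. The shares of all genes in these 4 comparisons were 24.3 to 26.9% that rose and 21.4 to 25.1% that fell.

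**Figure D5:**
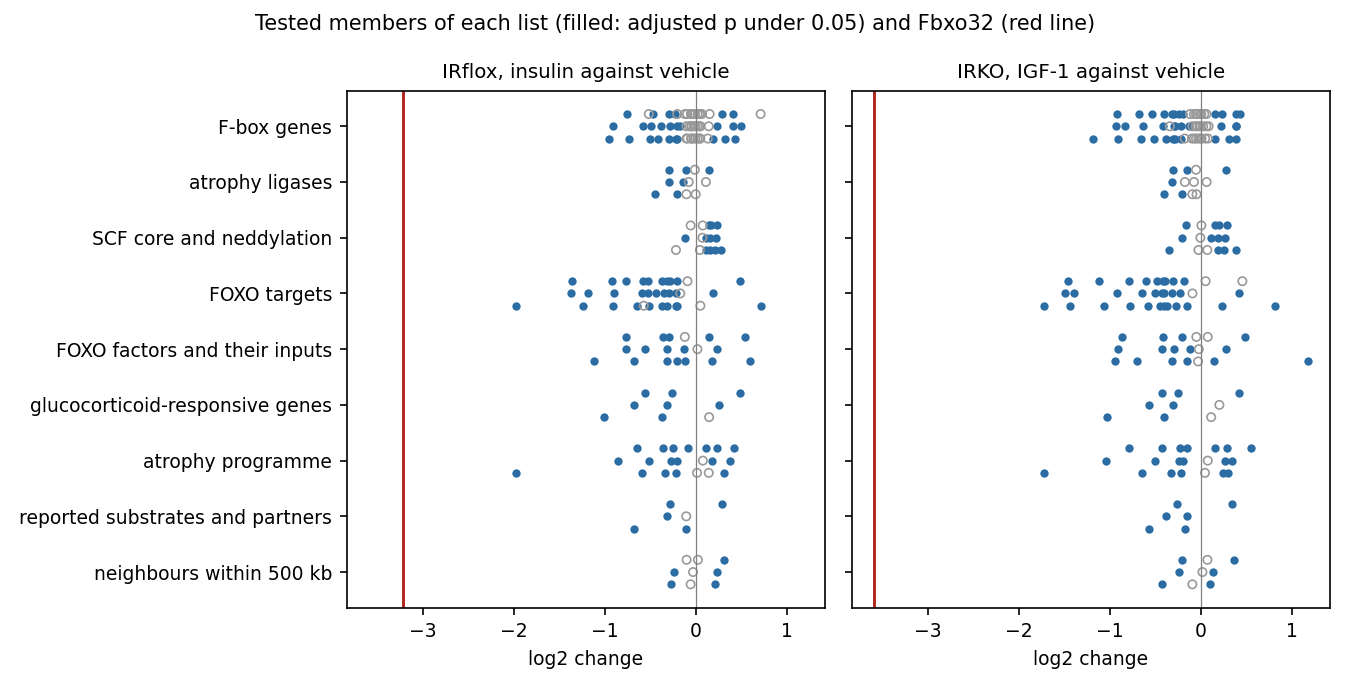
Log2 change against vehicle for each tested member of 9 gene lists (rows) with insulin in IRflox and with IGF-1 in IRKO; filled points passed an edgeR adjusted p of 0.05, and the red line marks Fbxo32. The members farthest down are FOXO targets such as Pdk4 (-1.98 with insulin in IRflox), and none reaches the line at -3.22 and -3.60.

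Glucocorticoids raise Fbxo32 in muscle, and 9 other glucocorticoid-responsive genes were tested. With insulin in IRflox 6 fell and 2 rose, beside 21.4% and 24.3% of all genes. With IGF-1 in IRflox 6 fell and 2 rose, and in IRKO 6 fell and 2 rose with insulin and 6 fell and 1 rose with IGF-1, beside 21.7 to 25.1% of all genes that fell and 24.7 to 26.9% that rose. Klf15, a transcription factor of fasting, fell by 1.01 with insulin in IRflox (edgeR adjusted p = 7.61e-12) and Dusp1, a MAP kinase phosphatase, by 0.68, while Ddit4 rose by 0.49. Of 21 tested genes of the wider atrophy programme, 12 fell and 6 rose with insulin in IRflox and 11 fell and 6 rose with IGF-1. In IRKO 12 fell and 6 rose with insulin, and 12 fell and 7 rose with IGF-1, beside the same shares of all genes. Sqstm1, a receptor for ubiquitinated cargo, fell by 0.85 in IRflox with insulin, from 1325 to 734 CPM.

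Of 6 tested genes for reported substrates and partners of atrogin-1, 4 fell and 1 rose in 3 of the 4 ligand comparisons. With IGF-1 in IRKO 5 fell and 1 rose. Among all genes, 21.4 to 25.1% fell and 24.3 to 26.9% rose, and a list of 6 is small. The calcineurin subunit gene Ppp3ca fell by 0.28 with insulin in IRflox (edgeR adjusted p = 1.01e-07) and Ppp3cb rose by 0.29. Chmp2b, an ESCRT-III subunit, fell by 0.32.

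Genes near Fbxo32 on chromosome 15 changed by small amounts. Of 16 measured genes within 500 kb, 9 were tested, and 3 rose and 2 fell with insulin in IRflox, where 24.3% of all genes rose and 21.4% fell. In each of the other 3 ligand comparisons 3 rose and 3 fell. These shares of so few genes are near those of all genes. The nearest tested gene, Wdyhv1, 17214 bp away, had -0.10 with insulin in IRflox (edgeR adjusted p = 0.467), and fell by 0.28 with IGF-1 in IRflox and, in IRKO, by 0.25 with insulin and 0.24 with IGF-1 (edgeR adjusted p = 0.0256, 0.0454 and 0.0456). Atad2, 40797 bp away, fell by 0.24 (edgeR adjusted p = 0.0142). With insulin in IRflox the tested neighbours lay between -0.27 (Zhx2) and 0.32 (9130401M01Rik, whose exons overlap other genes over 25.2% of their length).

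The same lists were read between genotypes under vehicle. There 3.76% of all genes rose and 4.1% fell in IRKO. Of the FOXO targets 0 rose and 3 fell, of the FOXO factors and their inputs 0 rose and 4 fell (Insr by 0.61, Irs2 by 0.19, Foxo3 by 0.14 and Foxo6 by 0.77), and of the wider atrophy programme 0 rose and 6 fell. Of the F-box genes and of the SCF list 0 rose and 1 fell each. In edgeR and in DESeq2 no atrophy ligase, substrate, glucocorticoid-responsive gene or neighbour passed in either direction, and 2 of these 35 genes had an unadjusted p under 0.05 in edgeR. With the microglia markers as a covariate the 3, 4 and 6 became 0, 0 and 1, and in the fit to the 2 vehicle groups alone the 4 and 6 became 2 and 3. The covariate left Foxo3 at -0.15, Foxo6 at -1.21 and Insr at -0.42, none of which then passed.

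Markers of other cells were also read beside the falls. Of 15 microglia markers 10 fell and 0 rose with insulin in IRflox, where 21.4% of all genes fell and 24.3% rose. With IGF-1 in IRflox 8 fell, and in IRKO 13 fell with insulin and 12 with IGF-1. In these 3 comparisons 0 rose, and 21.7 to 25.1% of all genes fell. The sum of the markers in IRflox was 1369 to 1458 CPM in vehicle and 1201 to 1268 CPM in insulin libraries. Oligodendrocyte lineage markers summed to 242 to 265 CPM in IRflox vehicle and 319 to 355 CPM in IRflox insulin libraries, and neuron markers to 148 to 152 and 171 to 181 CPM. The members of these lists did not move together. With insulin in IRflox 3 of 6 tested oligodendrocyte lineage markers rose and 1 fell. Of 6 tested neuron markers 2 rose and 1 fell, with a median log2 change of -0.01. Fibroblast and mural markers summed to 198 to 225 and 187 to 214 CPM, and endothelial markers to 7.46 to 9.98 and 7.57 to 11.3 CPM.

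Of 16 muscle markers, the tissue in which Fbxo32 is best known, 6 stayed under 0.1 CPM in mean, among them Myog, Myf5 and Actc1. The muscle list, which includes smooth muscle genes such as Cnn1, summed to 212 to 222 CPM in IRflox vehicle and 247 to 280 CPM in IRflox insulin libraries. Hepatocyte markers summed to at most 12.7 CPM in any library and were uneven among libraries of a group, with 50 to 153 counts of Alb in IRflox insulin and 0 to 2 in IRflox vehicle libraries. The part of these cells in the Fbxo32 values was not tested.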

How the data were processed

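The authors deposited unnormalised read counts of each gene for 24 poly-A libraries without strand information (2 µg of RNA, integrity number above 7, 150 bp pairs, per the labels' protocols). The tools named in the submitters' processing notes, without roles, are R 4.0.4, DESeq2, edgeR and STAR 2.7.7a, with the build mm10. Which program counted the reads, and on which annotation, is not given in the sources used here. Lines naming no gene were left out of library sizes; reads outside genes were 14.5 to 23.2% of each library. Groups and replicate numbers came from the sample titles.

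The tests used edgeR 4.0.16 under R 4.3.3. Genes passing its expression filter (minimum count 10, minimum total 15) were scaled by TMM (factors 0.982 to 1.018), and all 24 libraries entered 1 quasi-likelihood fit with a mean for each group. In each of 13 comparisons p-values were adjusted by Benjamini-Hochberg over the 15599 genes tested, and a gene passed under 0.05. CPM use TMM sizes; log2 CPM use a prior count of 2. Differences in Fbxo32 alone were also tested by two-sided exact permutation. Levels of F-box genes are compared per kilobase of exon. Intervals for single libraries cover counting error only, since reads without molecular identifiers are not independent molecules. On simulated data the fit was tested with known changes. No 2 replicates agreed within sampling noise (chi-square per gene at least 2.17).

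The gene, the 17 lists and the tests were chosen with earlier results of these data known. Named genes were Fbxo32, the 10 largest falls of each ligand comparison, the 8 most correlated and 5 closest genes (mean log2 CPM at least 1, at most 20% of exon length shared), up to 4 members of each list by size of change, the atrophy ligases, Foxo1, Foxo3, Foxo4, Foxo6, Insr, Igf1r, Fbxo25 and genes within 500 kb; Sod2 and Tnfsf10 were named after their values were seen. Alternatives were other scalings, filters and tools, a replicate block, a microglia covariate, fits to the compared groups and leaving out each library. Promoter and protein sequences of Fbxo32 were not used here.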

Additional observations from a re-analysis of the deposited data

Results flagged for a closer look

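In groups of 4 libraries, 1 library can stand apart from the other 3. In 114 such groups of CPM values, for Fbxo32, related ligases, FOXO factors, receptors and the 8 most correlated genes, 6 held a library that did, where chance gives about 1 group in 20. None of the 6 was a group of Fbxo32 values.

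Trim63 was at 0.0554 CPM, which is 1 count, in IRKO vehicle library 4 and at 0 in the other 3. Fbxo30 was at 31.1 CPM in the same library and at 28.6 to 28.8 CPM in the other 3. Fbxo21 was at 36.9 CPM in IRKO insulin library 4 and at 43.1 to 43.8 CPM in the others. In IRKO IGF-1 library 3, Fbxo25 was at 14.1 CPM, against 16.5 to 16.9 CPM, and Foxo3 at 134.3 CPM, against 143.6 to 144.5 CPM. Tcp11l2 was at 49.7 CPM in IRKO vehicle library 2 and at 57.5 to 58.5 CPM in the others.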

How the results depend on the processing

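The 4 falls of Fbxo32 with ligand kept their direction and stayed within the spread of libraries under each alternative, between -2.94 and -3.81 without any 1 library. The genotype average lost its call with the microglia covariate (0.13) and ranged from 0.22 to 0.31 without 1 library. The genotype difference under insulin passed without the low-count filter (0.37, edgeR adjusted p = 0.0394) and without IRflox insulin library 3 (0.51, edgeR adjusted p = 0.0446), in a range of 0.26 to 0.51. Insulin against IGF-1 in IRKO ranged from 0.46 to 0.70 without 1 library, and the average over genotypes from 0.43 to 0.58. The genotype difference under IGF-1 ranged from 0.09 to 0.38, that in the insulin response from 0.09 to 0.34 and that in the IGF-1 response from -0.09 to 0.21. By size of fall, Fbxo32 ranked 108th, 86th, 195th and 69th without the low-count filter, which adds genes with few counts. With IGF-1 in IRKO it ranked 1st with a mean CPM of at least 1 or with its 2 groups alone, and 1st to 3rd without 1 library; with insulin it ranked 1st or 2nd in each genotype.

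Same-numbered libraries did not deviate together (60 pairs, correlations -0.115 to 0.061; 8 of 24 libraries correlated best with their own number), so the number is only a name. With the replicate block the genotype average was 0.26 (edgeR adjusted p = 0.0225) and insulin against IGF-1 was 0.58 in IRKO (edgeR adjusted p = 0.0381) and 0.50 on average (edgeR adjusted p = 0.00514); no call on Fbxo32 changed. Genes called in IRKO against IRflox under vehicle, 586 up and 640 down, became 37 and 38 with the microglia covariate. Under insulin 771 and 863 became 114 and 92, and under IGF-1 564 and 491 became 114 and 102. On average 2003 and 2031 became 105 and 109. Within a treatment this covariate cannot be told apart from genotype. Even the targeted gene Insr, at -0.42 under vehicle, lost its call with it (edgeR adjusted p = 0.21). Without the low-count filter, genes lower with insulin than IGF-1 in IRflox were 296 in place of 171. F-box genes that rose with IGF-1 in IRflox were 7 in place of 11 with those 2 groups alone, and neighbours that rose with IGF-1 in IRKO 1 in place of 3 in 4 settings. For a genotype difference in the response, edgeR called 0 genes with insulin and 0 with IGF-1 (430 up and 408 down, and 434 and 388, at an unadjusted p under 0.05); without the low-count filter it called 12 up and 7 down, and 15 and 4, and DESeq2 called 2 up with IGF-1. Counts of 46 to 121 limit the precision of Fbxo32 in the ligand groups.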
